A study of Mus musculus with 6 samples.

Results

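The subunits of the serine/threonine protein phosphatases were described in regulatory T cells (Treg) of the mouse colon and of the lymph node that drains the gut. Members were chosen by symbol: every gene whose symbol in the array's annotation is Ppp followed by a digit, with Ppp1r15a left out. This gave 74 of the 19057 genes named on the array, read by 149 probes, of which 11 genes encode catalytic subunits and 63 encode regulatory or associated subunits. No value enters the rule, but the family was selected on earlier results of the same colon against lymph node contrast, so the counts and differences below are a description of the family and are not independent evidence about it.

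RNA was hybridised to 6 Illumina bead arrays, 3 for Treg of the colon lamina propria (cLP Treg) and 3 for Treg of the mesenteric lymph node (MLN Treg). Both groups came from C57BL/6 mice of the genotype Foxp3gfp, a reporter that marks cells in which Foxp3 is expressed, taken in the steady state, and both were sorted as TCRβ+CD4+Foxp3+ cells. The labels give neither the age of the mice nor whether each array stands for its own animal, so a p-value here reflects the spread among these arrays, which may be technical. RNA was amplified before labelling, and in such bulk samples fewer cells of a type and less RNA per cell cannot be told apart.

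Serine/threonine phosphatases remove phosphate groups that kinases have added to proteins. A small number of catalytic subunits is shared among many regulatory subunits, which hold the enzyme at its substrate, choose that substrate or block the active site. Protein phosphatase 1 (PP1) pairs a catalytic subunit with one of a large set of targeting or inhibitory proteins. Protein phosphatase 2A (PP2A) is built from a catalytic subunit, a scaffold and an exchangeable B subunit, and calcineurin (PP3, also called PP2B) from a catalytic subunit and a calcium-binding one. In T cells calcineurin is known for activating the NFAT transcription factors after calcium entry, and it is the target of ciclosporin and tacrolimus.

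All values are normalised log2 intensities, and a difference is cLP Treg minus MLN Treg on that scale, with its standard error (SE). A gene is reported by the brightest of its probes, and was tested where a probe of it was detected on at least 3 of the 6 arrays. A gene was called higher or lower where the adjusted p of limma's moderated test, corrected by Benjamini-Hochberg over all 9157 genes tested, was under 0.05. The detected share of probes was 32.7 to 35.4% per array. Over all genes 32.5% were called, 12.1% higher and 20.4% lower in cLP Treg, and the median difference was -0.21.

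The Treg label was checked first. All 8 Treg and T cell markers were measured, and 3 of them were called. Ikzf2 (2.22) and Ctla4 (1.05) were higher in cLP Treg and Il2ra (-1.67) was lower. Foxp3, Cd4 and Cd3g differed by -0.01, -0.07 and -0.22, and Cd3e (-0.60) and Cd3d (-0.67) had cLP values wholly below the MLN values without a call. Of 13 markers of smooth muscle, stroma and endothelium, 5 were measured and 3 were higher in cLP Treg. The reported probes of Acta2 (at least 33.7-fold), Col3a1 (at least 5.95-fold) and Mylk (at least 2.42-fold) were not well above background on any MLN array, so that they passed the filter through the cLP arrays alone and had to be higher there. With detection required on all 6 arrays Acta2 was read by another probe and differed by 0.89 (adjusted p = 0.0168), and the mean of its probes differed by 2.53. The summed linear level of the 5 was 767 to 990 on the MLN arrays and 2196 to 3344 on the cLP arrays. On the MLN arrays this sum mostly reads Pecam1 (MLN mean 9.45), which differed by -0.11. The largest term on each cLP array was the reported probe of Acta2 (cLP mean 10.64). Tagln, Cnn1, Col1a1, Pdgfrb and Cdh5 were detected on no array and Myh11 and Des on 2 cLP arrays. The cytotoxic markers Klrd1 and Nkg7 and the plasma cell markers Jchain and Xbp1 were higher in cLP Treg. Klrd1 and Jchain were again detected on no MLN array. Xbp1 was bright in both groups (MLN mean 11.24, cLP mean 12.26), and the call of Jchain held under 10 of 15 alternatives. Of the other plasma cell markers, Sdc1 and Tnfrsf17 were detected on no array and Mzb1 on 1 cLP array. Klrd1 and Nkg7 differed by 2.08 and 1.87. The third measured cytotoxic marker, Cd8b1, differed by -0.78 (adjusted p = 0.061), and Cd8a and Ncr1 were detected on no array. The summed level of the 3 was 4808 to 5795 on the MLN arrays and 3158 to 5632 on the cLP arrays. This sum mostly reads Cd8b1, whose MLN mean was 12.28 beside 7.95 for Nkg7 and 4.81 for Klrd1. Of the B cell and myeloid markers Cd79b, Lyz1 and Lyz2 were lower. Among 3 measured epithelial markers Krt8 differed by 1.62 with every cLP value above every MLN value, short of the threshold (adjusted p = 0.0544), and Cdh1 and Epcam differed by 0.62 and -0.70. Of those not tested, Krt18 and Muc2 were each detected on 2 cLP arrays and Krt19 and Krt20 each on 1, all on no MLN array. Vil1 was detected on no array. One epithelial marker was called higher with a trended prior variance, under both stricter detection filters, with the median difference set to 0 and without cLP sample 1. The part of these markers in the results was not tested.

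Of the 74 members, 46 were tested, and 11 of these were higher in cLP Treg, 8 were lower and 27 were not called. The called share was 41.3% of the tested members, beside 32.5% of all genes, with 23.9% higher beside 12.1% and 17.4% lower beside 20.4%. The excess in called share did not hold under every alternative. It was 39.1% beside 42.3% with median scaling, 41.3% beside 40% in the deposited values and 34.8% beside 34.1% with a trended prior variance. Without MLN sample 1 it was 19.6% beside 19.4%, without MLN sample 2 19.6% beside 20.8%, and without a detection filter 17.6% beside 12.7%. This split turned with the scaling: 6 members were higher and 12 lower with median scaling, 7 and 12 in the authors' deposited values, and 12 and 3 with the median difference of all genes set to 0. The values of the groups did not overlap in 24 members, 14 with cLP above and 10 with cLP below, beside 47% of all genes. An unadjusted p under 0.05 was found for 22 members. The median difference was 0.11, with a range from -1.48 to 2.84, and it became -0.26 with median scaling and -0.09 in the deposited values. Of the 27 members not called, the nearest to the threshold was Ppp1r37 (adjusted p = 0.0619), and of the called ones Ppp2cb (adjusted p = 0.046).

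**Figure D1:**
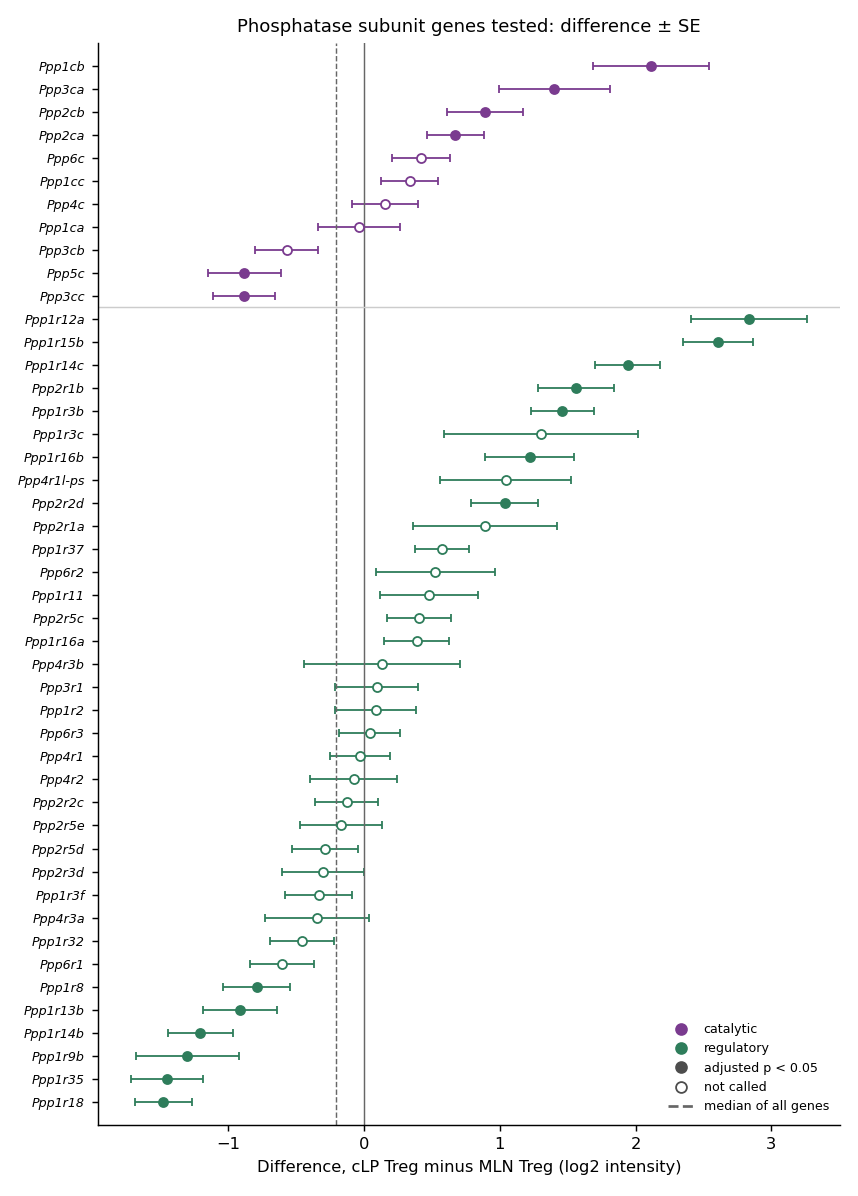
Difference between cLP Treg and MLN Treg (log2 intensity, point) with its SE (bar) for the 46 phosphatase subunit genes tested, catalytic subunits above and regulatory subunits below, filled where the adjusted p was under 0.05. The dashed line is the median of all genes (-0.21). The 19 called genes lie on both sides of 0, from Ppp1r18 at -1.48 to Ppp1r12a at 2.84.

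The calls were also counted by enzyme, beside 12.1% of all genes higher and 20.4% lower. Among PP1 members 6 of 21 tested were higher and 6 lower, among PP2A members 4 of 10 were higher and 0 lower (0 lower also by limma's unadjusted p), and among calcineurin members 1 of 4 was higher and 1 lower. With median scaling these became 5 and 7 for PP1, 1 and 1 for PP2A and 0 and 2 for calcineurin. Among the 6 tested genes of PP4 and the 4 of PP6 there were 0 calls (limma; 0 and 1 with an unadjusted p under 0.05), and Ppp5c, the sole member of PP5, was lower. The medians were 0.34 for PP1, 0.54 for PP2A, -0.24 for calcineurin, 0.05 for PP4 and 0.23 for PP6, and none of these medians was tested against another.

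The calls that held under every alternative with a value were those of Ppp1cb, Ppp1r15b, Ppp1r14c, Ppp2r1b and Ppp1r3b among the higher genes and Ppp1r18, Ppp1r35 and Ppp1r14b among the lower. With the median difference of all genes set to 0 the lower genes Ppp3cc, Ppp5c, Ppp1r9b, Ppp1r13b and Ppp1r8 were no longer called (adjusted p = 0.0601 to 0.12). Without a detection filter, where 19057 genes were tested, Ppp2cb, Ppp3ca, Ppp5c, Ppp1r16b, Ppp1r9b, Ppp1r13b and Ppp1r8 were not (adjusted p = 0.0566 to 0.0994). For 5 of these 8 the promoter table holds a single start site, and the 250 bases before it are shown so that genes that moved in opposite directions can be read side by side (RefSeq, GRCm38.p6, plus strand for all 5). Ppp1r15b and Ppp1r3b have no entry, and Ppp1r18 has several. The first 3 sequences belong to higher genes, at chr5:32458720-32458969, chr10:3365900-3366149 and chr9:50856674-50856923, and the last pair to lower genes, at chr5:137778654-137778903 and chr19:6974798-6975047. Capitals mark the GC box GGGCGG and the CCAAT box, searched on both strands with overlapping matches kept.
Ppp1cb: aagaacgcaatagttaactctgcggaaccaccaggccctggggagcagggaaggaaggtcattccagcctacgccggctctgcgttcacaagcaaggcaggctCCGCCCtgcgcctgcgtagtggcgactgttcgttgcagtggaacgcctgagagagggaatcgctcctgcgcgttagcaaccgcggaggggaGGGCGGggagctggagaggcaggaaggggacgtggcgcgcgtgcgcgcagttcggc
Ppp1r14c: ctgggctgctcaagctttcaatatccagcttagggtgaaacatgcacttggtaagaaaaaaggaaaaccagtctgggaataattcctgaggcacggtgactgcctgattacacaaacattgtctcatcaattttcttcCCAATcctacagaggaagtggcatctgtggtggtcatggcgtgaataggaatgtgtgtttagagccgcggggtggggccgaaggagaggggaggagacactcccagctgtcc
Ppp2r1b: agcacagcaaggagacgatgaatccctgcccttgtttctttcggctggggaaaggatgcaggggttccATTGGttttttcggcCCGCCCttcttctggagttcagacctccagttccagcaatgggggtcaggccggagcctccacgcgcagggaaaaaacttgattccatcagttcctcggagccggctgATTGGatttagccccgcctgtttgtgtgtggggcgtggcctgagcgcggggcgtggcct
Ppp1r35: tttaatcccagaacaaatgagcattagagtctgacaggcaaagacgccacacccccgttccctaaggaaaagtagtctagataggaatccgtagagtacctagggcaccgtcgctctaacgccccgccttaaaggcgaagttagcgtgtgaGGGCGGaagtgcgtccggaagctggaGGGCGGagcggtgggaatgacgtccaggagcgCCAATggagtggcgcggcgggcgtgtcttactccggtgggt
Ppp1r14b: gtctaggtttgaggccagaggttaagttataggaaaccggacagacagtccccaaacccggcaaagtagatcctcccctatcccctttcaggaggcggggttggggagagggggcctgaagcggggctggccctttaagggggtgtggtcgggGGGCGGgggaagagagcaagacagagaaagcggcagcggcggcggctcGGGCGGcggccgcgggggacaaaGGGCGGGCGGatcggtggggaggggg
The window of Ppp1r14b held 4 GC boxes, those of Ppp1cb and Ppp1r35 held 2 each, that of Ppp2r1b held 1 and that of Ppp1r14c held 0. Ppp2r1b held 2 CCAAT boxes, and Ppp1r14c and Ppp1r35 held 1 each. Their content of G and C was 65.2%, 50% and 59.2% in the higher genes and 58% and 66.8% in the lower ones, in the order shown.

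Of the 74 members 57 were found in the promoter table, with 69 windows of that length. A GC box stood in 60.9% of the members' windows and in 32.7% of all 32851 windows, and a CCAAT box in 29% and 33.9%. Among called members a GC box stood in 3 of 9 windows of higher genes and in 10 of 11 windows of lower genes, each from 7 genes, so that windows of 1 gene share sequence. The cAMP response element TGACGTCA, a motif chosen after the sequences had been seen, stood in 4 of the 69 members' windows (5.8%) and in 1.55% of all windows. These were 1 window of Ppp2ca, 2 of Ppp2r2d and 1 of Ppp1r12c, which was not tested. These matches describe letters only, and no test was made of them.

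Catalytic subunits were all measured, each with its reported probe detected on all 6 arrays. In cLP Treg 4 of the 11 were higher (Ppp1cb, Ppp3ca, Ppp2cb and Ppp2ca), 2 were lower (Ppp3cc and Ppp5c) and 5 were not called, with a median difference of 0.34. The called share was 54.5%, beside 32.5% of all genes, with 36.4% higher beside 12.1% and 18.2% lower beside 20.4%. With median scaling the counts were 1 higher and 3 lower, in the deposited values 2 and 3, and with the median difference set to 0 they were 4 and 0.

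PP1 has 3 catalytic genes, and they differed from each other in what they did. Ppp1cb encodes the beta (also called delta) isoform, the partner of the myosin phosphatase targeting subunits. It read 6.72, 7.42 and 7.84 on the MLN arrays and 9.99, 9.70 and 8.63 on the cLP arrays. Every cLP value lay above every MLN value, and both groups were wide, with SDs of 0.57 and 0.72. The difference was 2.11 ± 0.43, or 4.33-fold (limma, adjusted p = 0.00911), and a second probe of the gene gave 2.36 (adjusted p over probes = 0.00904). In the deposited values, which carry no background correction, the difference of Ppp1cb was 1.41 and still called. Ppp1cc, the gamma isoform, read 11.47, 11.37 and 11.60 in the MLN and 11.64, 11.86 and 11.95 in the colon, groups that did not overlap but lay close together (0.34 ± 0.21, 95% confidence interval -0.15 to 0.82, adjusted p = 0.266). Its sign turned with median scaling (-0.08). Ppp1ca, the alpha isoform, read 12.66, 11.95 and 12.34 against 11.94, 12.16 and 12.74, so the groups overlapped fully (-0.04 ± 0.30, interval -0.73 to 0.66, adjusted p = 0.944). Its 4 measured probes differed by -0.41 to 0.07, none past the threshold.

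Both catalytic genes of PP2A were higher in cLP Treg. Ppp2ca, the alpha isoform, read 13.14, 13.43 and 13.49 on the MLN arrays and 14.00, 14.04 and 14.04 on the cLP arrays. The cLP values were nearly equal (SD 0.02) and all lay above the MLN values (SD 0.19). The difference was 0.67 ± 0.21, or 1.59-fold (adjusted p = 0.0426), and the call ended without any one of the 6 samples (adjusted p = 0.0681 to 0.166) and with median scaling (0.47, adjusted p = 0.115). Ppp2cb, the beta isoform, read 9.42, 9.66 and 10.28 against 10.51, 10.61 and 10.90, again without overlap (0.89 ± 0.28, 1.85-fold, adjusted p = 0.046). Its call held without MLN sample 3 and ended without any other sample (adjusted p = 0.0297 to 0.165), and its difference was 0.39 with median scaling and 0.43 in the deposited values (adjusted p = 0.346 and 0.267).

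Of the 3 catalytic genes of calcineurin 1 was higher, 1 was lower and 1 was not called. Ppp3ca, the alpha isoform, read 8.26, 8.12 and 8.13 in MLN Treg and 10.22, 9.90 and 8.60 in cLP Treg. The MLN values lay within 0.08 of each other by SD, while cLP sample 3 stood well below the other cLP samples (SD 0.85). The difference was 1.40 ± 0.41, or 2.64-fold (adjusted p = 0.034). It was 1.89 without cLP sample 3 (adjusted p = 0.0017), and the call ended without any other sample (adjusted p up to 0.0987), under median scaling (0.98, adjusted p = 0.0795) and by the deposited values (0.90, adjusted p = 0.0578). A dimmer probe differed by 0.48 (adjusted p over probes = 0.279). Ppp3cc, the gamma isoform, read 9.34, 8.99 and 8.89 against 8.34, 8.20 and 8.02, all cLP values below all MLN values (-0.89 ± 0.23, 1.85-fold lower, adjusted p = 0.0218). That call ended without MLN sample 1 or 2, and a dimmer probe differed by -0.46 (adjusted p over probes = 0.408). Ppp3cb, the beta isoform and best known as the main one of lymphocytes, read 11.49, 11.10 and 11.25 against 10.44, 10.89 and 10.80. Its groups did not overlap, and its difference of -0.57 ± 0.23 did not pass the threshold (adjusted p = 0.1). Under median scaling (-1.02, adjusted p = 0.0151) and by the deposited values (-0.90, adjusted p = 0.0166) it was called. The calcium-binding subunit Ppp3r1 differed by 0.09 ± 0.31 (adjusted p = 0.847), and its relative Ppp3r2 was detected on no array.

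The single catalytic genes of the other enzymes were PP4, PP5 and PP6. Ppp5c, a phosphatase that works with the chaperone Hsp90, read 8.27, 7.55 and 7.84 in MLN Treg and 7.30, 6.87 and 6.84 in cLP Treg. The groups did not overlap, and the difference was -0.88 ± 0.27, or 1.84-fold lower (adjusted p = 0.0403). A second probe gave -0.99 (adjusted p over probes = 0.0494), and the call held without cLP sample 1 and ended without any other sample (adjusted p up to 0.148). Ppp6c, the catalytic subunit of PP6, read 11.67, 11.63 and 11.57 against 12.14, 11.80 and 12.19, without overlap and without a call (0.42 ± 0.21, interval -0.08 to 0.92, adjusted p = 0.178). Ppp4c, that of PP4, read 12.49, 12.65 and 12.10 against 12.79, 12.38 and 12.53, and its groups overlapped (0.15 ± 0.24, interval -0.41 to 0.72, adjusted p = 0.674). With median scaling Ppp4c differed by -0.23.

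**Figure D2:**
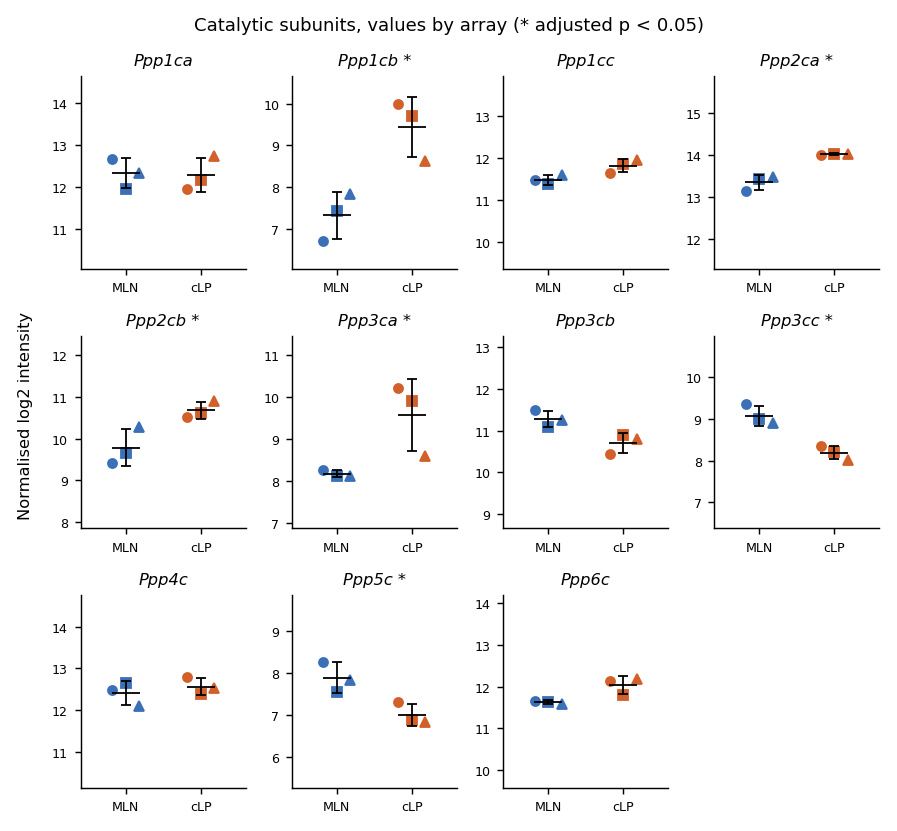
Normalised log2 intensity of the 11 catalytic subunit genes on each array (circle, square and triangle for samples 1, 2 and 3 of a group), with mean and SD as black lines. Every panel spans the same height of the log2 scale, and an asterisk marks an adjusted p under 0.05. Ppp1cb (2.11) and Ppp3ca (1.40) have the largest differences between group means.

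Regulatory subunits were measured in part: 35 of 63 passed the detection filter, and of these 7 were higher, 6 were lower and 22 were not called, with a median difference of 0.09. The called share was 37.1%, near the 32.5% of all genes, with 20% higher beside 12.1% and 17.1% lower beside 20.4%. Of the 28 not tested, 18 were detected on no array. They include Ppp1r12b, which encodes the targeting subunit MYPT2, and the smooth muscle gene Ppp1r14a, which encodes the inhibitor CPI-17. The neuronal or muscle genes Ppp1r9a and Ppp1r3a are also among them. With median scaling 5 regulatory genes were higher and 9 lower, the same counts as in the deposited values, and with the median difference set to 0 the counts were 8 and 3.

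The targeting subunits of myosin phosphatase and the inhibitors that act on it held 3 higher genes and 1 lower gene among 5 measured. Ppp1r12a encodes MYPT1, which binds the Ppp1cb product and directs it to myosin. Its brightest probe read 6.89, 7.11 and 7.14 on the MLN arrays and 10.72, 9.98 and 8.95 on the cLP arrays. The MLN values were tight (SD 0.14) and the cLP values spread over a wide range above them (SD 0.89). The difference was 2.84 ± 0.42, or 7.14-fold (adjusted p = 0.00276). A second probe of Ppp1r12a ran the other way, with 8.64, 8.48 and 9.35 in MLN Treg and 6.17, 7.65 and 8.10 in cLP Treg (-1.51, adjusted p over probes = 0.0543). The mean of the 2 probes differed by 0.66 and was not called (adjusted p = 0.0625), so the direction of Ppp1r12a depends on the probe. For the brightest probe the deposited values gave 2.02 and values without background correction 2.23, both called.

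Ppp1r16b encodes TIMAP, a membrane-bound relative of MYPT1. It read 10.22, 9.44 and 10.36 in MLN Treg and 10.80, 11.32 and 11.56 in cLP Treg, without overlap (1.22 ± 0.33, 2.33-fold, adjusted p = 0.0256). Its other probes rose further, one by 2.43 (adjusted p over probes = 0.00455) and one that was not well above background on any MLN array by at least 12.4-fold, which passed the filter through the cLP arrays alone and so had to differ. The call of the brightest probe was lost when MLN sample 1, MLN sample 2, cLP sample 2 or cLP sample 3 was omitted, and under median scaling (0.75, adjusted p = 0.144), and the mean of its probes differed by 2.68. Ppp1r16a, which encodes the related MYPT3, differed by 0.39 ± 0.24 (adjusted p = 0.259).

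Ppp1r14c and Ppp1r14b encode the PP1 inhibitors KEPI and PHI-1, close relatives that were called in opposite directions. Ppp1r14c read 5.27, 4.90 and 5.21 on the MLN arrays, on none of which it was detected, and 7.39, 6.90 and 6.93 on the cLP arrays. It was at least 2.84-fold higher in cLP Treg (measured means 5.13 and 7.07, adjusted p = 0.00133), and since it passed the detection filter through the cLP arrays alone it had to differ. Its fitted difference of 1.94 became 0.92 without background correction and 0.91 in the deposited values, both called. The other probes of Ppp1r14c were detected on no array and differed by -0.04 to -0.01. Ppp1r14b read 8.08, 7.74 and 7.65 against 6.40, 6.56 and 6.89. All cLP values lay below all MLN values, and the spread was small in both groups (-1.21 ± 0.24, 2.31-fold lower, adjusted p = 0.00848).

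Other genes of the same contractile pathway were read from a list of 13, of which 7 were measured, 3 were higher and 0 lower (0 lower also by limma's unadjusted p). They were Mylk, the kinase that phosphorylates myosin light chains and a marker of smooth muscle (at least 2.42-fold), Rock1, a kinase that inhibits myosin phosphatase (1.51 ± 0.33, 2.84-fold, adjusted p = 0.0127), and the light chain Myl12a (1.50 ± 0.26, 2.84-fold, adjusted p = 0.00478). Myh9, Myl6, Myl12b and Rhoa differed by 0.98, 0.26, 0.05 and -0.17 and were not called. The list's median, with Mylk included, was 0.98, beside -0.21 for all genes, of which 12.1% were higher and 20.4% lower. Mylk was detected on no MLN array and passed the filter through the cLP arrays alone, so it had to be higher. With detection required on all 6 arrays 2 of 6 measured genes of the list were higher and 0 lower. The smooth muscle marker Acta2 read 4.59, 4.76 and 4.71 on the MLN arrays and 11.15, 10.87 and 9.90 on the cLP arrays. Among the 11 called higher members cLP sample 1 was the lowest of its group in 4, sample 2 in 3 and sample 3 in 4. The highest of its group was sample 1 in 7, sample 2 in 2 and sample 3 in 2. The 4 with sample 3 lowest were Ppp1r12a, Ppp1cb, Ppp3ca and Ppp1r15b. Like Acta2, each of them was highest in cLP sample 1 and fell through sample 2 to sample 3. The part of such cells in the differences of these members was not tested.

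Other PP1 targeting subunits were fewer. Ppp1r15b encodes CReP, which brings PP1 to the translation factor eIF2 alpha and is expressed without stress. It read 7.15, 7.59 and 7.83 in MLN Treg and 10.32, 10.16 and 9.91 in cLP Treg. The groups lay far apart relative to their spread (SD 0.35 and 0.21), and the difference was 2.61 ± 0.26, or 6.09-fold (adjusted p = 0.00056). Without one sample it stayed between 2.42 and 2.76, and in the deposited values it was 1.88. Another probe of Ppp1r15b was detected on no array and differed by -0.03. Ppp1r3b encodes a subunit that binds PP1 to glycogen and is best known from liver. It read 7.54, 7.74 and 7.58 against 9.38, 8.82 and 9.04, again without overlap (1.46 ± 0.23, 2.75-fold, adjusted p = 0.00348). Of the other glycogen-targeting genes, Ppp1r3c had the larger spread: 6.42, 5.91 and 5.92 in MLN Treg and 7.16, 9.10 and 5.90 in cLP Treg, where 1 sample was at the MLN level (1.30 ± 0.71, adjusted p = 0.207). Ppp1r3f differed by -0.33 ± 0.25 (adjusted p = 0.35), and the remaining 4 were not tested.

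Scaffolds and B subunits accounted for the other PP2A calls. Ppp2r1b encodes the beta scaffold, which is usually the rarer one. It read 9.37, 9.32 and 8.84 on the MLN arrays and 11.005, 10.30 and 10.92 on the cLP arrays. Every cLP value exceeded every MLN value (1.56 ± 0.28, 2.96-fold, adjusted p = 0.00559), and no alternative ended the call. The other probes of Ppp2r1b did not pass the detection filter and differed by -0.11 to 0.25. Ppp2r1a, the alpha scaffold, read 8.76, 8.02 and 9.06 against 8.37, 9.74 and 10.41, so that 1 cLP sample lay inside the MLN range (0.89 ± 0.53, interval -0.34 to 2.12, adjusted p = 0.241). Ppp2r2d, a B55 subunit known for its part in mitotic exit, read 9.51, 9.43 and 9.90 against 10.46, 10.95 and 10.55 (1.04 ± 0.25, 2.05-fold, adjusted p = 0.0164). The groups of Ppp2r2d did not overlap. Median scaling (0.55, adjusted p = 0.136), the deposited values (0.58, adjusted p = 0.1) and the omission of MLN sample 1 or 2 each ended its call. None of the 3 measured B56 genes was called: Ppp2r5c differed by 0.41, Ppp2r5d by -0.29 and Ppp2r5e by -0.17. Ppp2r2c and the B double prime gene Ppp2r3d differed by -0.13 and -0.30.

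Proteins that modify PP2A, or join it to kinases in the STRIPAK complex, came from a list of 25, of which 14 were measured. Arpp19, which encodes an inhibitor of PP2A with B55, was 4.09-fold higher (2.03 ± 0.52, adjusted p = 0.0217). Ppme1, the methylesterase of the catalytic subunit, was 1.86-fold higher (0.90 ± 0.23, adjusted p = 0.0214), and the STRIPAK scaffold Strn was 2.86-fold lower (-1.52 ± 0.37, adjusted p = 0.0186). The other 11 were not called, and the list's median was -0.16. Beside these stand 12.1% of all genes higher, 20.4% lower and a median of -0.21. The calls of Arpp19 and Ppme1 ended with median scaling, and those of Arpp19 and Strn without any of the MLN samples and without a detection filter. That of Ppme1 ended in the deposited values and without MLN sample 1 or 3 or cLP sample 2. The mean of the Arpp19 probes differed by 0.11 (adjusted p = 0.785).

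The other 5 lower PP1 partners have varied roles. Ppp1r18 encodes phostensin, which binds PP1 and actin and is known from leukocytes. It read 14.53, 14.58 and 14.61 in MLN Treg and 13.17, 12.88 and 13.24 in cLP Treg. The MLN values were nearly equal (SD 0.04) and the cLP values all lower, with a difference of -1.48 ± 0.21, or 2.79-fold lower (adjusted p = 0.00229). Ppp1r9b encodes spinophilin, which also joins PP1 to actin. It read 10.30, 10.29 and 10.61 against 8.23, 9.66 and 9.41, and cLP sample 1 stood well below the other cLP samples (-1.30 ± 0.38, 2.47-fold lower, adjusted p = 0.0344). Without cLP sample 1 the difference of Ppp1r9b was -0.87, and its call ended without any of the MLN samples (adjusted p up to 0.111).

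Ppp1r35, a gene with a part in centriole growth, read 9.88, 10.13 and 9.79 in MLN Treg and 8.70, 8.71 and 8.04 in cLP Treg. No values overlapped, and the difference was -1.45 ± 0.26, or 2.73-fold lower (adjusted p = 0.00574), with -1.35 for a second probe (adjusted p over probes = 0.00522). Ppp1r13b, which encodes the p53-binding protein ASPP1, read 8.21, 8.58 and 8.94 against 7.95, 7.37 and 7.68 (-0.91 ± 0.27, 1.88-fold lower, adjusted p = 0.0383). Ppp1r8 encodes NIPP1, a nuclear inhibitor of PP1, and read 8.66, 8.56 and 8.85 against 7.97, 7.53 and 8.21 (-0.79 ± 0.25, 1.73-fold lower, adjusted p = 0.0448). The groups of both genes did not overlap, but their calls each ended without 5 of the 6 samples in turn (adjusted p up to 0.124 and 0.134).

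**Figure D3:**
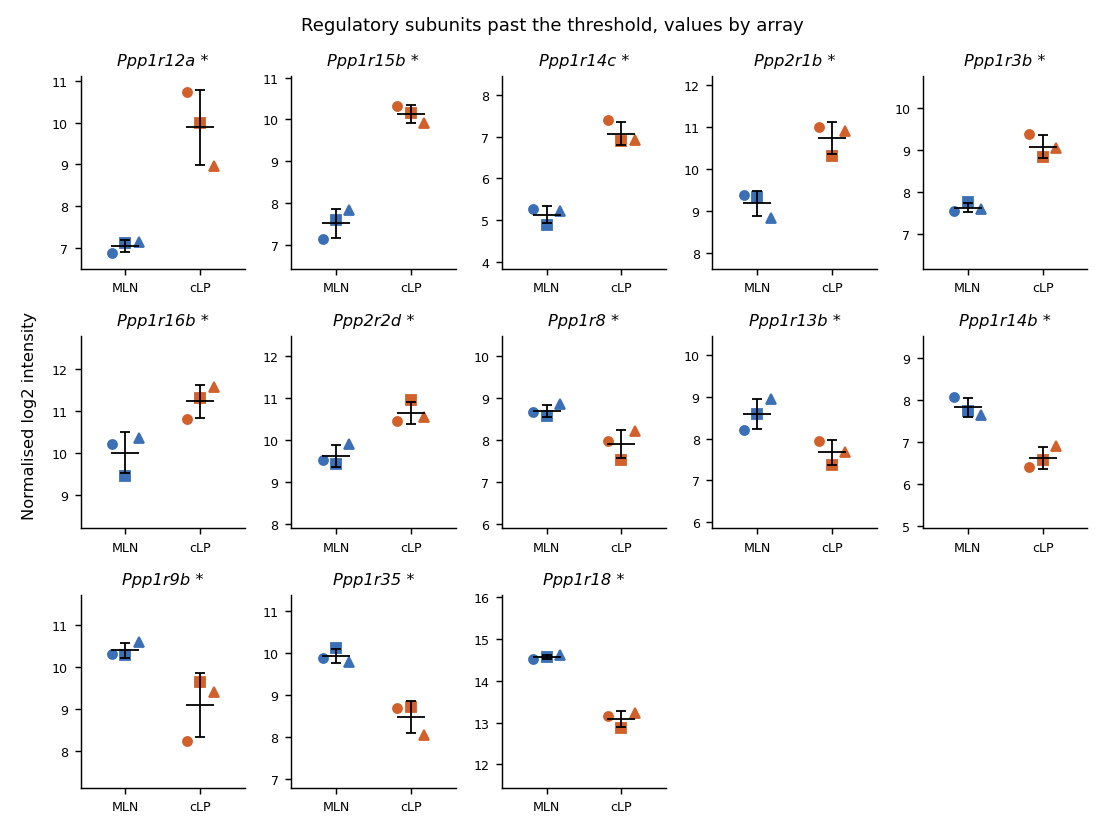
Normalised log2 intensity on each array of the 13 regulatory subunit genes past the threshold (adjusted p under 0.05), ordered by the difference of the reported probe, from Ppp1r12a (2.84; -1.51 by its second probe) to Ppp1r18 (-1.48); symbols, lines and scale height are as in the plot of catalytic subunits. In none of the 13, which were picked by their adjusted p, do the 3 MLN and 3 cLP values overlap. Over all genes 47% had groups without overlap.

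The 22 regulatory genes without a call fell on both sides of 0. Differences were positive, from 0.04 to 1.30, in 12 genes: Ppp6r3, Ppp1r2, Ppp3r1, Ppp4r3b, Ppp1r16a, Ppp2r5c, Ppp1r11, Ppp6r2, Ppp1r37, Ppp2r1a, the pseudogene Ppp4r1l-ps and Ppp1r3c. They were negative, from -0.60 to -0.03, in 10 genes: Ppp6r1, Ppp1r32, Ppp4r3a, Ppp1r3f, Ppp2r3d, Ppp2r5d, Ppp2r5e, Ppp2r2c, Ppp4r2 and Ppp4r1. Ppp1r37 and Ppp6r1 had groups that did not overlap. Ppp4r3b, a PP4 subunit, had the widest cLP spread of them after Ppp1r3c: it read 9.78, 10.06 and 9.89 in MLN Treg and 11.41, 9.86 and 8.86 in cLP Treg. Over the 46 members the median SD was 0.22 for MLN Treg and 0.29 for cLP Treg, beside 0.25 and 0.38 over all genes.

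Probes of the same gene did not always run together. Of 17 members with more than 1 measured probe, 12 had probes of 1 sign and 5 did not: Ppp1r12a, Ppp1ca, Ppp2r5c (-0.05 to 0.93), Ppp2r5d (-0.29 to 0.61) and Ppp4r1 (-0.34 to 0.53). In 0 genes was a probe called in each direction. Ppp2r5e, a B56 subunit, was not called by its brightest probe, but another probe read 8.05, 7.95 and 7.73 in MLN Treg and 4.73, 5.07 and 5.35 in cLP Treg. That probe was detected on no cLP array and was at least 5.28-fold lower, and since it passed the filter through the MLN arrays alone it had to differ. Ppp6r3, a PP6 subunit at 0.04 by its brightest probe, had another that read 7.57, 8.26 and 8.81 against 10.40, 10.14 and 10.12 (2.01, adjusted p over probes = 0.00417). Which transcripts these probes read was not tested, since probe sequences were not used here.

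**Figure D4:**
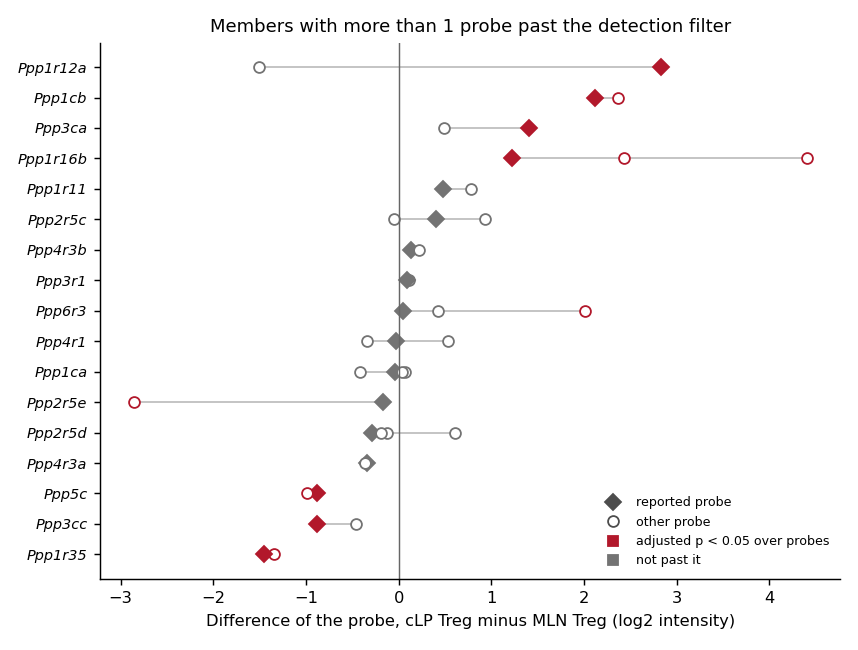
Difference between cLP Treg and MLN Treg (log2 intensity) of every measured probe of the 17 members with more than 1, as a diamond for the reported probe and a circle for the others, red where the adjusted p over probes was under 0.05. The probes of Ppp1r12a, at 2.84 and -1.51, lie farthest apart across 0.

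Genes upstream and downstream of calcineurin were read from a list of 32, of which 23 were measured. Of these 4 were higher, 7 lower and 12 not called, with a median of -0.27. Over all genes 12.1% were higher and 20.4% lower, with a median of -0.21. Nfatc1, a target of calcineurin and a transcription factor of activated T cells, read 10.61, 10.93 and 11.01 in MLN Treg and 7.97, 7.02 and 8.21 in cLP Treg. The gap was wide relative to the spread, and Nfatc1 was 8.67-fold lower (-3.12 ± 0.34, adjusted p = 0.000828). The mean of the Nfatc1 probes differed by less (-1.72) and was still called. Rcan3, a regulator that binds calcineurin, was 5.66-fold lower (-2.50 ± 0.31, adjusted p = 0.00125), and Nfat5, a family member that calcineurin does not control directly, was 2.44-fold lower (-1.29 ± 0.25, adjusted p = 0.00807). Nfatc2 and Nfatc3 differed by 1.15 ± 0.70 and -0.28 ± 0.22 and were not called.

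Calcium entry genes on that list were split. The channel gene Orai1 was 2.41-fold higher (1.27 ± 0.26, adjusted p = 0.00992), while its relatives Orai2 and Orai3 were 4.71-fold and 3.39-fold lower, and the calcium release channel Itpr3 was 2.88-fold lower (adjusted p = 0.0096, 0.00573 and 0.00573). The calcium sensor Stim2 was 1.58-fold lower (adjusted p = 0.0485), and its relative Stim1 differed by 0.82 ± 0.34 (adjusted p = 0.107). Of the NFAT kinases, Gsk3b was 2.74-fold and Dyrk2 1.98-fold higher (adjusted p = 0.0105 and 0.0112), while Dyrk1a (-0.47) and Csnk1a1 (-0.04) were not called. The mean of the Gsk3b probes differed by 0.19 (adjusted p = 0.626), and median scaling also ended its call (1.03, adjusted p = 0.0548). The calcineurin substrate Crtc2 was 1.75-fold higher (adjusted p = 0.0345). The calls of Nfatc1, Rcan3, Nfat5, Orai2, Orai3 and Itpr3 held under all 16 alternatives, and those of Stim2 and Crtc2 ended under most of them.

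The metal-dependent phosphatases, a separate family that needs no regulatory subunits of this kind, gave a comparison. Of 16 measured, 3 were higher, 4 lower and 9 not called, beside 12.1% of all genes higher and 20.4% lower. Their median was -0.17, beside -0.21 for all genes. Phlpp1, which acts on the kinase Akt, was 5.73-fold higher (2.52 ± 0.35, adjusted p = 0.00199). Ppm1f and Ppm1h were 4.29-fold and 3.80-fold lower (adjusted p = 0.00482 and 0.00224), though the mean of the Ppm1h probes differed by -0.64 and was not called (adjusted p = 0.14). Tab1 and Ppm1m were 2.72-fold and 2.48-fold lower (adjusted p = 0.00639 and 0.0104). The calls of Ppm1l and Pdp1, both higher, ended under most alternatives, with the sign of Pdp1 turned under 1 of them. No test was made of the family against the phosphatase subunits.

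**Figure D5:**
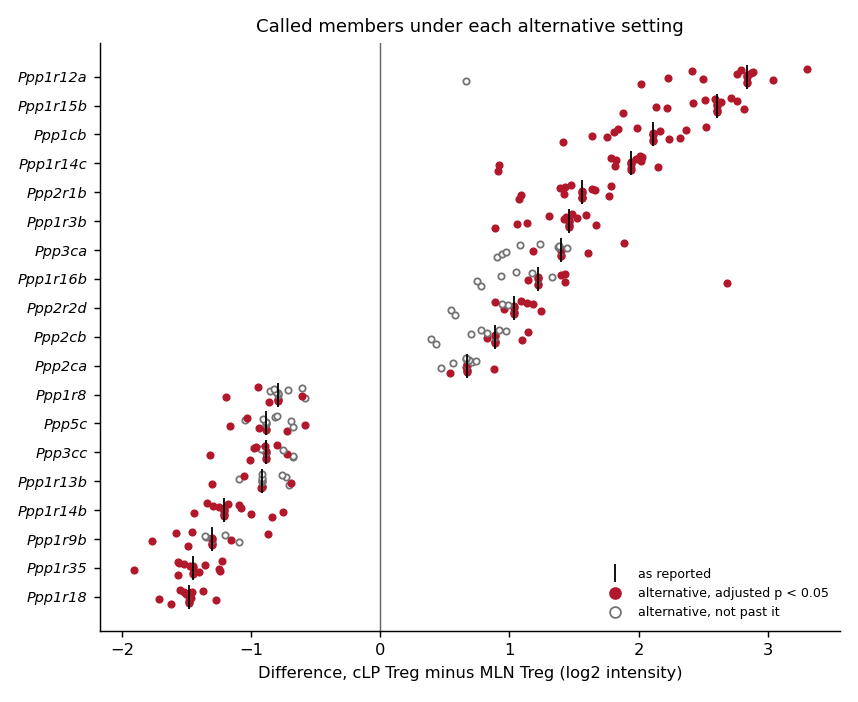
Difference between cLP Treg and MLN Treg (log2 intensity) of the 19 called members as reported (black bar) and under each alternative setting with 1 value per gene (points, filled red where the adjusted p was under 0.05). No point crosses 0, and 8 of the 19 genes keep their call under every setting with a value.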

How the data were processed

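Arrays were grouped by the source label, since the titles of the MLN samples read MSN, and replicate numbers come from the titles. The authors deposited a table of linear probe intensities, made in GenomeStudio 1.6.0, as the submitters' processing notes state. The deposited columns titled detection p-value increase with signal (rank correlation 0.991 or more), so they were treated as a deposited fraction, and 1 minus it as the detection p. In the series matrix the authors deposited log2 values, and each equals the log2 signal less that of the array's 75th percentile; all 45281 probes matched within a tolerance of 0.1 in signal, so scale, centring and direction are known. The medians of its columns were -0.73, -0.61 and -0.85 for the MLN samples and -0.60, -0.69 and -0.66 for the cLP samples.

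The analysis used limma 3.58.1 (R 4.3.3): normexp background correction from the detection p (offset 16), log2, then quantile normalisation. Probes detected at p under 0.05 on at least 3 arrays were kept. The brightest kept probe of each gene, by its mean over all arrays, entered lmFit and eBayes without a block (9157 genes). P-values were adjusted by Benjamini-Hochberg. In the annotation 34885 probes had 1 symbol, 18 several and 10378 none; the latter 2 kinds were left out of gene tests. All 74 members were found in the RefSeq gene table under the same symbol. A fold written "at least" belongs to a probe not well above background on any array of 1 group: it sets the brighter mean against, per dim array, the larger of the probe's own signal and the lowest detected signal. Levels of different probes are not compared. No label names a chip or scan, so batches were not fitted, and the number of arrays limits the precision. The fit was tested on simulated data before use.

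Members and lists were chosen with earlier results of these data known. Values on every array are given for each catalytic subunit and for the up to 10 regulatory subunits called in each direction with the largest differences; other members are given by direction and range, and probes of opposite sign are named. Ppp1r3c, Ppp2r1a, Ppp4r3b, Ppp2r5e, Ppp6r3, Nfatc1 and Acta2 were added to these after their values were seen. Alternatives covered background, normalisation, the deposited values, the detection filter, the probe per gene, centring, the prior variance, a replicate block and leaving out each sample.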

Additional observations from a re-analysis of the deposited data

How the results depend on the processing

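Without background correction, with detection required on all 6 arrays or on all arrays of 1 group, with the mean of probes and with each probe alone, the counts of higher, lower, catalytic and regulatory members called and of all genes called stayed within 1.5 times their reported values. With the mean of probes 1 catalytic subunit was lower and 1 metal-dependent phosphatase higher, and with detection on all 6 arrays 1 smooth muscle or stromal marker was higher. With median scaling 6 members were higher and the median over members was -0.26; in the deposited values these were 7 and -0.0891, and with the median difference set to 0 there were 3 lower members and a median of 0.32. All genes split into 1110 higher and 1864 lower as reported, 831 and 3042 with median scaling, 882 and 2780 in the deposited values and 1364 and 1342 with the median set to 0, and the median over all genes moved to -0.51 and -0.30 in the first pair of these. Without a detection filter 4 members were lower and 3 catalytic subunits called, and with a trended prior variance 5 members were lower.

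Replicate numbers showed no pairing of the samples: same-numbered samples correlated at -0.16, -0.10 and -0.01 in their deviations from the group means, and MLN samples 1, 2 and 3 correlated best with cLP samples 3, 1 and 2. All correlations were small (-0.16 to 0.23). Deviations within a group of 3 sum to 0, so these values cannot decide whether samples were paired, and the labels do not say. With the replicate number as a block 4 members were lower, 9 higher and 2 catalytic subunits called, among 2453 genes called.

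Leaving out each sample in turn gave 6 to 10 members higher and 3 to 7 lower, 1 to 3 catalytic and 8 to 13 regulatory subunits called, a median of 0.13 to 0.21 and 1781 to 3225 genes called. The lowest of these counts came without MLN sample 1 or 2, with 9 members called in each case. With 1 value per gene, no call of the 19 members turned sign; the dimmer probe of Ppp1r12a, tested alone, was at -1.51. Of the 19 calls 8 held under all alternatives with a value for the gene, and 9 held whichever sample was left out. Among uncalled catalytic subunits, Ppp1cc was at -0.0802 with median scaling and -0.0015 in the deposited values. Ppp4c was at -0.23 and -0.15 in these, and ran from -0.0039 to 0.27 over the samples left out, lowest without MLN sample 3. Ppp1ca was at 0.17 with the median set to 0, and ran from -0.27 to 0.14 over the samples left out, above 0 without MLN sample 1, cLP sample 1 or cLP sample 2. The cause of these shifts was not tested. Signal over background limits the family too, since 28 members had no probe detected on 3 arrays.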
